A study of Drosophila melanogaster with 12 samples.

Results

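The comparison set S2 cells that had received double-stranded RNA (dsRNA) against row beside S2 cells that had received none, with 3 libraries on each side. It was made by taking the 3 row RNAi and the 3 control columns of the deposited count table, which are 6 of its 12 libraries. Of 16718 genes in the table, 7377 passed the filter on low counts and were tested. S2 cells are a line derived from Drosophila melanogaster embryos, with properties of macrophage-like blood cells (plasmatocytes), and dsRNA added to their medium triggers RNA interference (RNAi) against the matching transcript.

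All cells were grown in Schneider's medium with fetal bovine serum. The row RNAi cells were given 4 µg of dsRNA per ml. After 2 days a further dose of 8 µg per ml followed, and after 2 more days the cells were collected. The series also holds 3 libraries of cells given dsRNA against both row and BEAF-32 (double RNAi) and 3 of cells given dsRNA against BEAF-32, by the same schedule. The control cells are labelled as having had no treatment. No group received dsRNA of unrelated sequence, so an effect of losing row and an effect of dsRNA itself cannot be told apart in row RNAi against control. The labels do not say that the 3 libraries of a group came from separate cultures, so the spread between libraries may be technical. The p-values rest on that spread, taken within groups over all 12 libraries and moderated across genes.

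ROW is a zinc finger protein found in a chromatin complex with the heterochromatin protein 1 paralogue HP1c and the zinc finger protein WOC. Unlike the HP1 protein of pericentric heterochromatin, HP1c sits mostly at active genes. BEAF-32 is an insulator protein that binds near the promoters of many housekeeping genes, and the series title names a joint role of ROW and BEAF-32 in regulating genes over long range.

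Transcripts were counted from their polyadenylated ends (3' RNA-seq). Total counts were 2929190 to 3326737 in the row RNAi libraries and 2743143 to 3142822 in the control libraries, and gene levels are stated as CPM, each count taken relative to its library's scaled total. Pairs of libraries within a group differed by more than sampling noise, with a chi-square over its degrees of freedom of 3.79 to 4.17 in row RNAi and 3.74 to 5.88 in control. In a principal component analysis of the 6 libraries, control 1 stood apart on the first component (23.8% of the variance, -32.86 against -2.5 to 14.76 in the others). The second component (21.7%) held the row RNAi libraries at -14.92 to -7.62 and the control libraries at -9.56, 17.6 and 24.28, so control 1 lay within the row RNAi range there. Among plasmatocyte markers, gcm, gcm2 and NimC2 were at 0 in all 6 libraries, while 17 others were expressed well enough to be tested.

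Few genes changed. At an adjusted p under 0.05 in edgeR's quasi-likelihood test, 14 genes passed, 3 higher and 11 lower in row RNAi, which is 0.190% of the genes tested (0.0407% higher and 0.149% lower). The genes that rose were sima, DnaJ-1 and Act5C. The genes that fell were CG15209, He, row, CG1358, CG14523, Prx2540-1, Nplp2, Glt, CG6310, CG3961 and CG1092. On the log2 scale the changes ran in size from 0.27 (Act5C) to 2.21 (CG15209). In all 14 the row RNAi and control libraries did not overlap, as was true of 11.8% of all tested genes. The median log2 change over tested genes was 0.00, the middle 50% of genes lay between -0.17 and 0.15, and 87.2% lay between -0.5 and 0.5. At an unadjusted p under 0.05 there were 423 genes, 208 higher (2.82%) and 215 lower (2.91%). DESeq2 called 22 genes (0.298%), among them all 14.

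**Figure D1:**
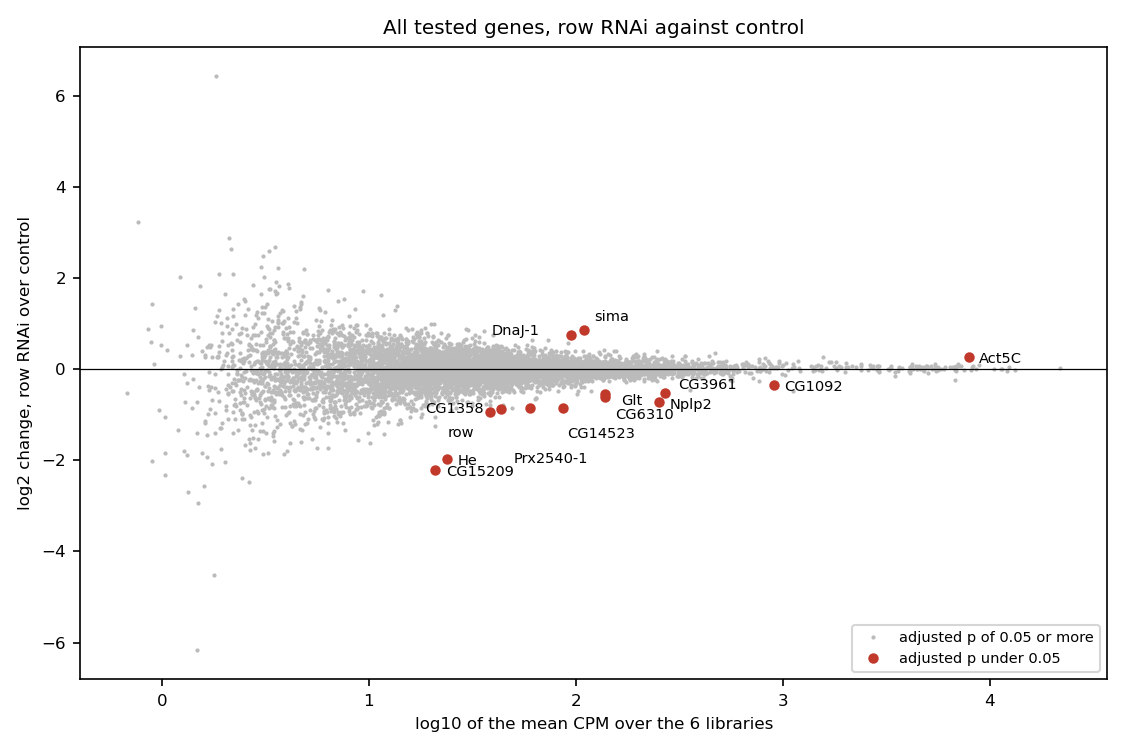
Log2 change in row RNAi over control (vertical axis) against the log10 of the mean CPM over the 6 libraries (horizontal axis) for the 7377 tested genes. The 14 genes with an adjusted p under 0.05 are red and named: 3 lie above 0 and 11 below, and CG15209 and He lie furthest below.

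**Figure D2:**
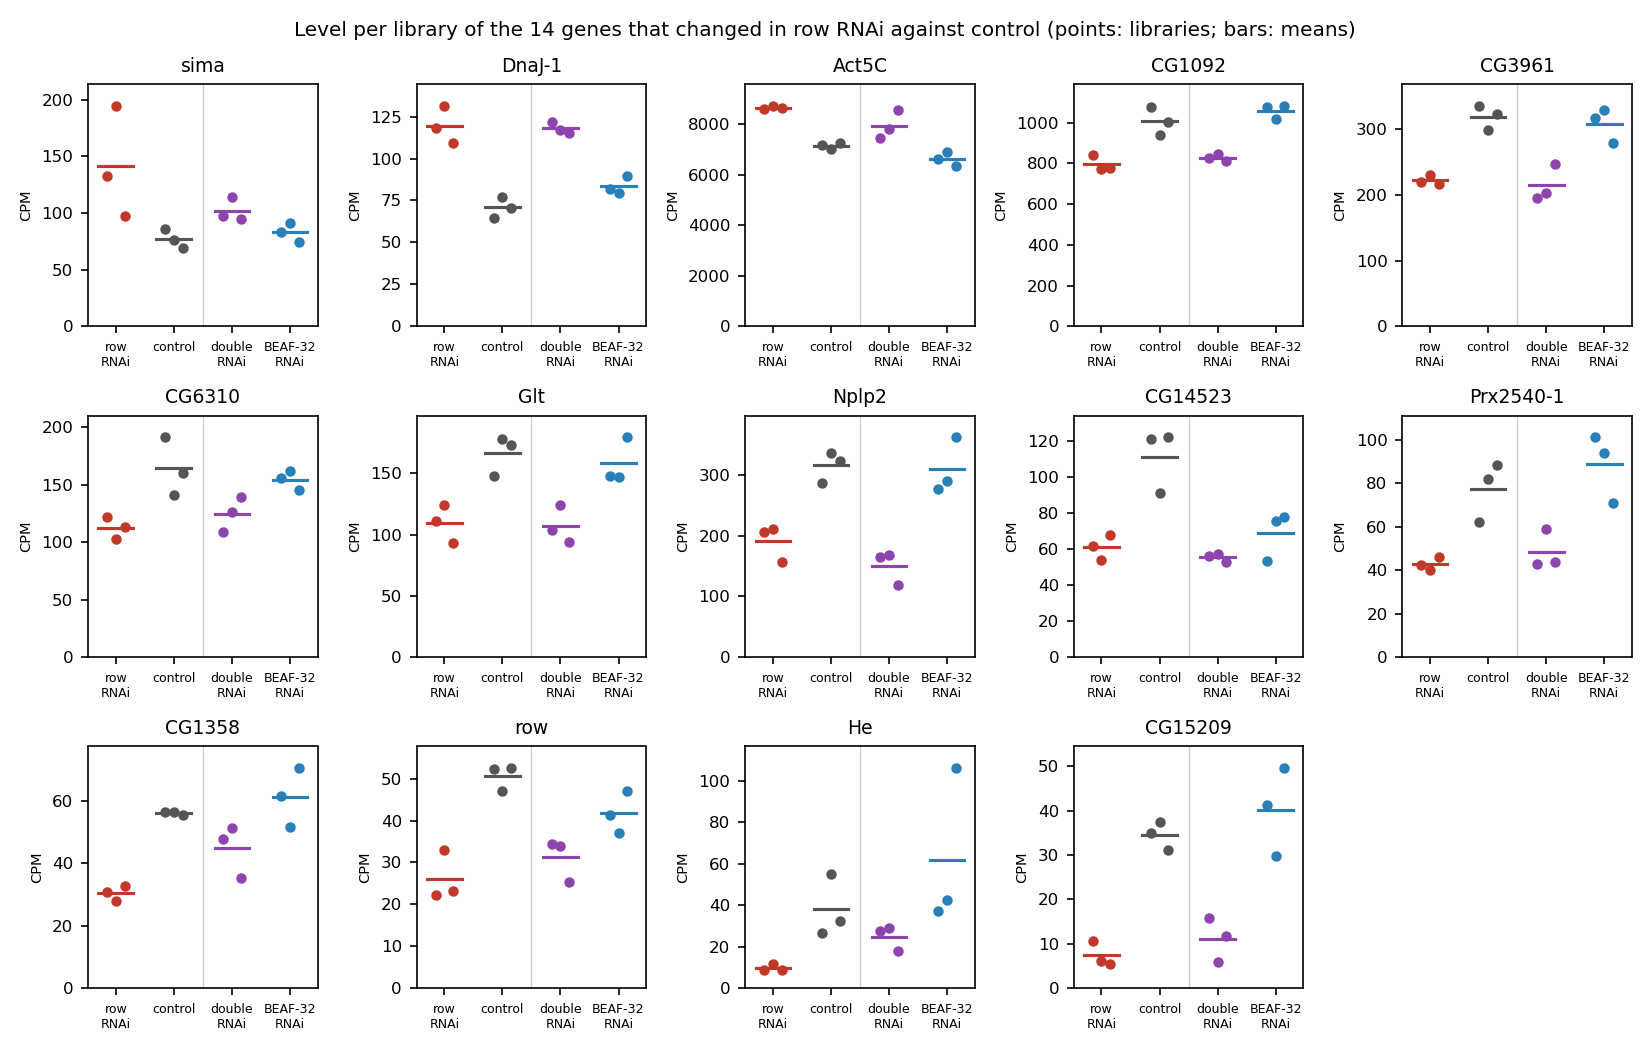
CPM in each library (points) and group means (bars) for the 14 genes that passed the test, each on its own linear axis from 0, in row RNAi, control, double RNAi and BEAF-32 RNAi. The row RNAi and control points do not overlap in any panel, and the gap between the group means is widest relative to control in CG15209.

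The targeted gene was lowered but not lost. Row, on the minus strand of 2R, had 22.3, 33.0 and 23.1 CPM in the row RNAi libraries and 52.3, 47.1 and 52.4 CPM in the control libraries. Every row RNAi library was below every control library, and row RNAi 2 kept the most. The means were 26.1 ± 5.98 CPM in row RNAi and 50.6 ± 3.04 CPM in control (SD, n = 3 each), so that 51.7% of the control level was left. The log2 change was -0.95 (SE 0.22, adjusted p = 0.0379). These values rest on 67, 96 and 75 counts in row RNAi and 138, 151 and 151 in control. The call held when row RNAi 2 was left out (adjusted p = 0.0351) and was lost when any of the other 5 libraries was left out (0.0793 to 0.306). Row overlaps Ir51b on the opposite strand, and the use of strand in counting is not stated. BEAF-32, which was not targeted in these cells, had 50.8, 61.9 and 64.5 CPM in row RNAi and 65.9, 42.7 and 62.8 CPM in control. Those groups overlapped, with a log2 change of 0.05 (SE 0.21, adjusted p = 0.997).

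The partners of ROW in its complex did not pass the test. Of 9 tested genes in the list of the HP1c complex and the HP1 proteins, 4 were above 0 and 5 below, and row alone was called. HP1c had a log2 change of 0.26, woc -0.14, HP1b -0.21 and the gene of HP1a, the HP1 of pericentric heterochromatin, -0.06. Ssrp and dre4, which encode the subunits of the histone chaperone FACT, had 0.23 and -0.13. The ubiquitin receptor Ubqn had 0.02 and the germline HP1 paralogue rhi 0.14. Apart from row, the lowest adjusted p in the list was 0.877. The list median was -0.06, against 0.00 over all tested genes. No call fell among 19 insulator and promoter architectural genes, 18 cohesin and condensin genes or 30 Polycomb and trithorax group genes. Nor did any fall among 22 chromatin remodeler genes and 20 genes of histone methylation and heterochromatin. None of these genes had an unadjusted p under 0.05, against 423 of all 7377 tested. The list medians lay between -0.10 and 0.06. Calls were 0.190% of all tested genes, so lists of these sizes could hold none without differing from the rest.

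CG15209 had the largest change and the lowest p of the 14 genes. It lies on the plus strand of the X chromosome, and no role is given here for its product. Its level was 10.6, 6.19 and 5.55 CPM in row RNAi and 34.9, 37.4 and 31.2 CPM in control. The highest row RNAi library was below the lowest control library by a wide margin. The means were 7.46 ± 2.77 CPM in row RNAi and 34.5 ± 3.11 CPM in control (SD, n = 3 each), 21.6% of control or 4.62-fold lower in row RNAi. The log2 change was -2.21 (SE 0.32, adjusted p = 2.02e-05), and the call held without each of the 6 libraries in turn (highest adjusted p 0.00164). CG15209 overlaps CG32669 and sbr on the opposite strand. The nuclear RNA export factor gene sbr had 36.2 CPM in row RNAi and 33.1 CPM in control, a log2 change of 0.13, so sbr did not fall with CG15209. CG32669 averaged 0 CPM in row RNAi and 1.21 CPM in control and was not tested. Of the other neighbours, Imp, which encodes an RNA-binding protein, had 0.07 and CG17333 -0.07.

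Among genes known from blood cells, 3 fell. Nplp2, annotated as a neuropeptide-like precursor, had 206, 210.2 and 156 CPM in row RNAi and 287, 335 and 323 CPM in control. Its libraries were separated by group, with row RNAi 3 the lowest. The means were 191 ± 30.1 CPM in row RNAi and 315 ± 25.2 CPM in control (SD, n = 3 each; log2 change -0.73, SE 0.12, adjusted p = 0.00213), and the call held without each library in turn (highest 0.0340).

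He encodes Hemese, a glycoprotein of the hemocyte surface. It had 8.97, 11.7 and 8.94 CPM in row RNAi and 26.9, 54.9 and 32.6 CPM in control. The control libraries were spread about their mean far more than the row RNAi libraries. The means were 9.87 ± 1.58 CPM in row RNAi and 38.1 ± 14.8 CPM in control (SD, n = 3 each), 3.88-fold lower in row RNAi. Its log2 change was -1.96 (SE 0.39, adjusted p = 0.0482). He was no longer called without row RNAi 1, 2 or 3 or control 3 (0.473, 0.373, 0.432 and 0.134) under library totals alone (0.0581) and under limma-voom (0.698). He lies in a cluster of hemocyte receptor genes and overlaps NimB5 on the opposite strand. NimB5 had a log2 change of -0.45, and NimB4, the nearest tested gene on the strand of He, averaged 1.33 CPM in row RNAi and 4.86 CPM in control (log2 change -1.87, adjusted p = 0.812). In the same cluster NimC4, which encodes the apoptotic cell receptor Simu, had 40.2, 25.1 and 49.7 CPM in row RNAi and 25.8, 17.1 and 19.8 CPM in control. Its groups overlapped and it did not pass (log2 change 0.88, SE 0.26, adjusted p = 0.272).

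Glt encodes glutactin, a glycoprotein of basement membranes. It had 111, 124 and 93.4 CPM in row RNAi and 148, 178 and 173 CPM in control, with no overlap. The means were 109.5 ± 15.4 CPM in row RNAi and 167 ± 16.2 CPM in control (SD, n = 3 each; log2 change -0.61, SE 0.13, adjusted p = 0.0132). Glt was no longer called without row RNAi 1 or 3 or control 2 or 3 (0.0693, 0.253, 0.187 and 0.134). On the opposite strand lies the overlapping gene CG9287, which averaged 2.74 CPM in row RNAi and 5.36 CPM in control (log2 change -0.96, adjusted p = 0.982).

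These 3 genes were the only called members of the plasmatocyte marker list, in which 7 of 17 tested genes were above 0 and 10 below, with a median of -0.10. The summed level of the list was 2552 to 2699.7 CPM in row RNAi and 2847 to 2891 CPM in control. This sum includes the 3 called genes, so it is not separate from their falls, and the list was not summed without them. In bulk RNA, fewer cells of a type and less RNA per cell cannot be told apart. In the basement membrane list 5 of 16 genes were above 0 and 11 below (median -0.12). Glt was its only call by edgeR, DESeq2 also called Mmp1, and the laminin chain genes LanB1 (-0.23, adjusted p = 0.798) and LanB2 (-0.22, adjusted p = 0.802) did not pass. All 9 tested markers of lamellocytes, the encapsulating blood cells of larvae, were above 0 (median 0.27). None was called by edgeR, and DESeq2 called Mmp1 and PPO3. Their summed level was 896 to 1034 CPM in row RNAi and 816 to 832 CPM in control, with mspo at 0 in all 6 libraries. The lamellocyte genes nearest to the threshold were Mmp1, PPO3 and shot, which are described below. Of 3 tested crystal cell markers 1 was above 0 and 2 below, and lz and PPO1, which define that cell type, were at 0. Of 23 markers of fat body, muscle, neurons and germline 6 reached the filter, 9 were at 0 in all 6 libraries and none was called. What share such cells had in these changes was not tested.

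CG14523 encodes a neprilysin-like protein, a relative of the membrane metallopeptidases that cleave peptides, and carries the current symbol Nepl19. It lies on the minus strand of 3R, and had 61.5, 54.0 and 67.8 CPM in row RNAi and 121, 91.3 and 122 CPM in control. All row RNAi libraries were below all control libraries, of which control 2 was the lowest. The means were 61.1 ± 6.92 CPM in row RNAi and 112 ± 17.5 CPM in control (SD, n = 3 each; log2 change -0.86, SE 0.16, adjusted p = 0.00270). The call was lost without row RNAi 2 (0.0550) or control 3 (0.0722). CG14523 overlaps CG33203 on the same strand, and its counts are uncertain to that extent. Related genes lie beside it. CG14527 had 27.3, 15.8 and 13.9 CPM in row RNAi and 34.5, 22.8 and 38.9 CPM in control, groups that overlapped (log2 change -0.75, SE 0.31, adjusted p = 0.723). CG14528 had 0.332, 0 and 0 CPM in row RNAi, from 1 count, and 5.30, 1.25 and 3.82 CPM in control (adjusted p = 0.283). In the list of neprilysin-like peptidases 1 of 6 tested genes was above 0 and 5 were below, with 1 call and a median of -0.61. The exception was CG9505 (current symbol Nepl4), with 26.6, 24.8 and 28.7 CPM in row RNAi and 8.34, 13.4 and 18.4 CPM in control. Its groups did not overlap, and its log2 change of 0.99 (SE 0.31) did not pass.

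Prx2540-1, now Prx6b, encodes a peroxiredoxin, an enzyme that reduces peroxides. It lies on 2R among near-identical copies. It had 42.2, 40.3 and 45.9 CPM in row RNAi and 62.1, 81.7 and 88.5 CPM in control, with no overlap. The means were 42.8 ± 2.89 CPM in row RNAi and 77.4 ± 13.7 CPM in control (SD, n = 3 each; log2 change -0.86, SE 0.18, adjusted p = 0.00897). The call was lost without row RNAi 1 or 2 or control 2 or 3 (0.0693, 0.111, 0.0793 and 0.156). Counting may split reads between the copies, so the gene is reported as uncertain. The copy Prx2540-2 had 11.3, 6.88 and 5.86 CPM in row RNAi and 14.8, 15.3 and 17.3 CPM in control (log2 change -0.98, SE 0.39, adjusted p = 0.706), and the copy CG12896 had a log2 change of -0.13. The neighbour CG11825 had 8.31, 8.60 and 9.25 CPM in row RNAi and 18.6, 19.3 and 21.9 CPM in control. Its replicates were tight and its groups did not overlap, and it passed only in DESeq2 (adjusted p = 0.0496, against 0.181 in edgeR; log2 change -1.19, SE 0.33). In the list of antioxidant and glutathione genes 11 of 23 were above 0 and 12 below, with Prx2540-1 as the only call and a median of -0.02.

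The other genes that fell are known mainly by number. CG3961, on 3L, had 220.0, 230.2 and 217 CPM in row RNAi and 335, 299 and 323 CPM in control, which did not overlap (log2 change -0.52, SE 0.10, adjusted p = 0.00308). The call was lost without row RNAi 3 (0.0537) or control 3 (0.0595). CG1092, on 3R, was the most abundant gene that fell, with 840.2, 774 and 779 CPM in row RNAi and 1079, 941 and 1003 CPM in control. Its groups did not overlap, and its change was small (log2 change -0.34, SE 0.07, adjusted p = 0.0132). That call was lost without row RNAi 2 or 3 or control 1 or 3 (0.176, 0.175, 0.167 and 0.111). CG1358, on 2R, now named HisT, had 30.9, 27.9 and 32.7 CPM in row RNAi and 56.5, 56.4 and 55.5 CPM in control. Both groups were tight, at 30.5 ± 2.44 CPM in row RNAi and 56.1 ± 0.539 CPM in control (SD, n = 3 each; log2 change -0.88, SE 0.20, adjusted p = 0.0268). Leaving out any of the 6 libraries raised its adjusted p above the threshold (0.0901 to 0.223). CG6310, on 3L, had 122, 103 and 113 CPM in row RNAi and 191, 141 and 160.3 CPM in control, again with no overlap (log2 change -0.54, SE 0.13, adjusted p = 0.0463). Its call held without control 2 (0.0259) and was lost without any of the other 5 libraries (0.0693 to 0.484). The call was also lost under limma-voom (0.0602) and with the replicate number as a block in the fit (0.0688).

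Of the genes that rose, sima had the largest change. It encodes the alpha subunit of the hypoxia-inducible factor, which activates genes when oxygen is short. It had 133, 194 and 97.5 CPM in row RNAi and 85.6, 76.4 and 69.4 CPM in control. The groups did not overlap, but the row RNAi libraries were widely spread and row RNAi 2 was the highest. The means were 141 ± 48.9 CPM in row RNAi and 77.1 ± 8.15 CPM in control (SD, n = 3 each; log2 change 0.87, SE 0.16, adjusted p = 0.00308). The call was lost without row RNAi 2 (0.303) or control 3 (0.111). Its neighbours Tpi and CG34317 had log2 changes of 0.04 and 0.07.

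Other genes of the hypoxia response did not pass. In that list 9 of 14 tested genes were above 0 and 5 below, sima was the only call, and the median was 0.18. The summed level, with sima included, was 861 to 949 CPM in row RNAi and 780.2 to 833 CPM in control. The closest was scyl, an inhibitor of TOR signalling that is induced by low oxygen, with 83.1, 81.9 and 61.4 CPM in row RNAi and 49.3, 44.6 and 50.0 CPM in control. No row RNAi library was as low as a control library (log2 change 0.65, SE 0.18, adjusted p = 0.160). Its paralogue chrb had a log2 change of 0.71 (SE 0.34, adjusted p = 0.842). Hph, the prolyl hydroxylase that marks Sima for destruction when oxygen is present, averaged 78.3 CPM in row RNAi and 59.1 CPM in control (log2 change 0.41, adjusted p = 0.723). Of the glycolytic enzymes 12 of 16 were above 0 and 4 below, none called, with a median of 0.05.

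DnaJ-1 encodes an Hsp40 co-chaperone that is induced by heat shock. It had 118, 131 and 109 CPM in row RNAi and 64.8, 77.0 and 70.8 CPM in control. All row RNAi libraries were above all control libraries by more than the range within either group. The means were 119 ± 11.4 CPM in row RNAi and 70.9 ± 6.11 CPM in control (SD, n = 3 each; log2 change 0.75, SE 0.14, adjusted p = 0.00270). Without row RNAi 2 it was no longer called (0.0550). Among the heat shock chaperones and their activator Hsf, 14 of 15 tested genes were above 0, with DnaJ-1 the only call. The list median was 0.24, against 0.00 over all tested genes. Its summed level was 5436 to 5485 CPM in row RNAi and 4711 to 4935 CPM in control, and the groups did not overlap. Hsp23, a small heat shock protein, had 531, 528 and 524 CPM in row RNAi and 359, 457 and 416 CPM in control. Its row RNAi libraries were all higher, and it missed the threshold (log2 change 0.36, SE 0.09, adjusted p = 0.0677). The inducible Hsp68 had 36.9, 44.0 and 34.5 CPM in row RNAi and 22.4, 26.2 and 29.8 CPM in control (log2 change 0.56, SE 0.26, adjusted p = 0.802). The Hsp90 gene Hsp83 averaged 824 CPM in row RNAi and 704 CPM in control (log2 change 0.23, adjusted p = 0.497). Hsf itself had a log2 change of -0.07, and Hsp70Ba, Hsp70Bbb and l(2)efl were at 0 in all 6 libraries. The list held 23 genes, and those neither tested nor at 0 had counts too low for the filter. How reads that match several genes were counted is not given, so a count of 0 need not mean that a gene was silent.

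Act5C, which encodes the main cytoplasmic actin, had 8607, 8713 and 8655 CPM in row RNAi and 7169, 7045 and 7276 CPM in control. The replicates of each group lay within a few percent of each other and the groups did not overlap. The means were 8658 ± 53.1 CPM in row RNAi and 7163 ± 116 CPM in control (SD, n = 3 each; log2 change 0.27, SE 0.05, adjusted p = 0.00272). The call held without each library in turn (highest 0.0495, without row RNAi 2). The other cytoplasmic actin gene, Act42A, had 1853, 1953 and 1918 CPM in row RNAi and 1799, 1615 and 1701 CPM in control. Its groups did not overlap and it did not pass (log2 change 0.16, SE 0.07, adjusted p = 0.723). In the list of actins and actin regulators 21 of 43 tested genes were above 0 and 22 below, Act5C was the only call, and the median was -0.01. The actin filament regulator ena had a log2 change of 0.28 (adjusted p = 0.350).

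**Figure D3:**
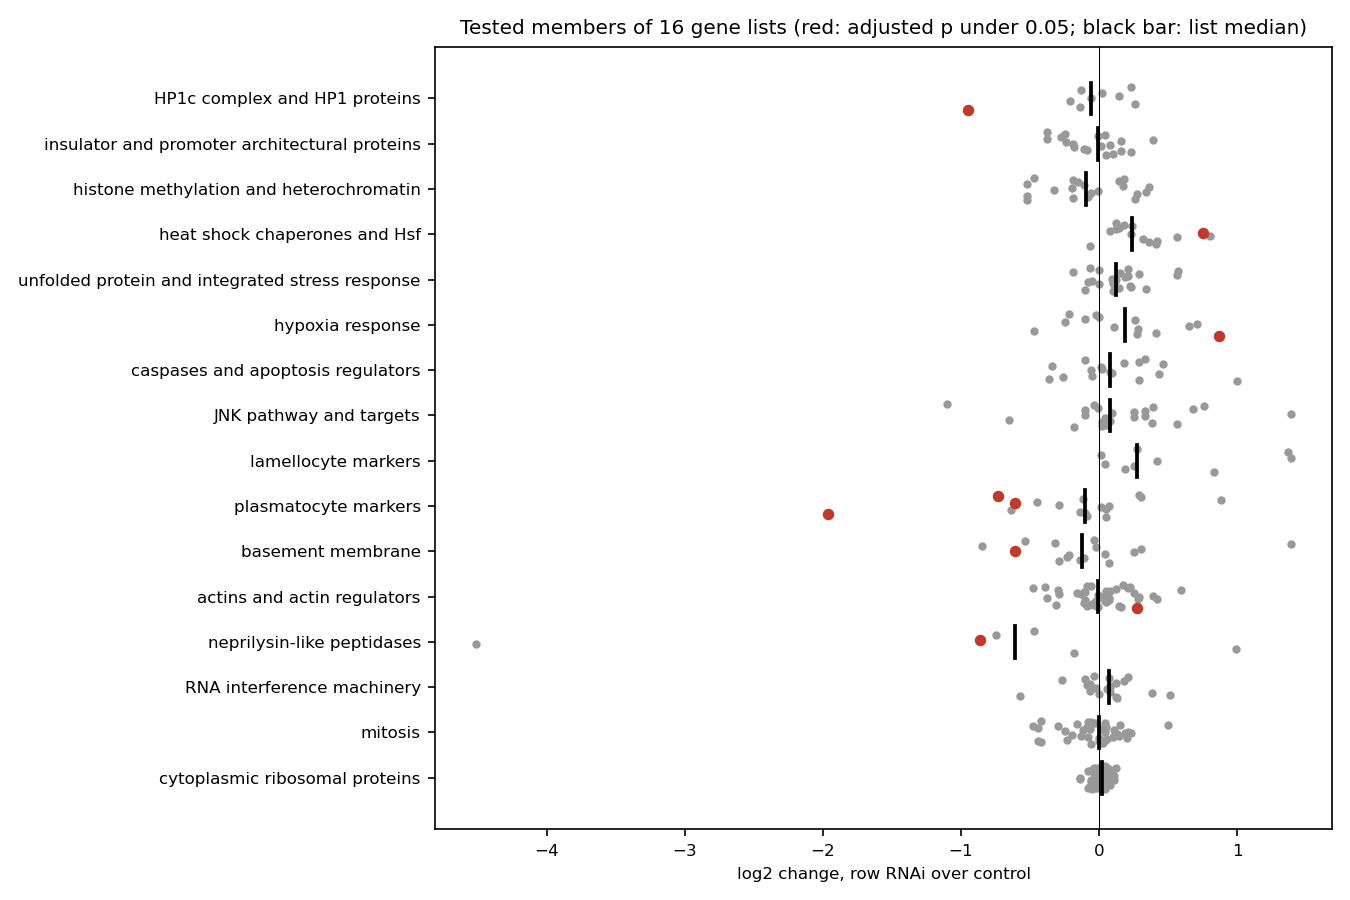
Log2 change in row RNAi over control (horizontal axis) of each tested member (points) of 16 gene lists, with the list median as a black bar and genes at an adjusted p under 0.05 in red. Medians lie between -0.61 (neprilysin-like peptidases) and 0.27 (lamellocyte markers), and no list holds more than 3 red points.

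DESeq2 called 8 genes that edgeR did not. Higher in row RNAi were Mmp1, CG43293, PPO3, Argk and Jupiter. Mmp1, a matrix metalloproteinase, had 17.6, 19.3 and 22.5 CPM in row RNAi and 6.44, 7.79 and 8.33 CPM in control, with no overlap (log2 change 1.39, SE 0.37, adjusted p = 0.0496 in DESeq2 and 0.128 in edgeR). It overlaps Pof, which had a log2 change of -0.34. CG43293 averaged 14.3 ± 2.61 CPM in row RNAi and 4.38 ± 0.576 CPM in control (SD, n = 3 each; log2 change 1.71, SE 0.42, adjusted p = 0.0130 in DESeq2 and 0.0592 in edgeR). It overlaps D19A on the opposite strand, which had a log2 change of -0.36. PPO3, a prophenoloxidase of lamellocytes, had 51.2, 50.9 and 36.1 CPM in row RNAi and 29.9, 22.1 and 25.7 CPM in control, with no overlap (log2 change 0.83, SE 0.22, adjusted p = 0.0496 in DESeq2 and 0.135 in edgeR). The changes of the arginine kinase gene Argk (281 CPM in row RNAi and 213 CPM in control) and of the microtubule-associated protein gene Jupiter (1701 CPM in row RNAi and 1413 CPM in control) were smaller, with log2 changes of 0.40 (SE 0.10) and 0.27 (SE 0.07). Their adjusted p was 0.00942 and 0.0251 in DESeq2, and 0.0668 and 0.0649 in edgeR.

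Lower in row RNAi by DESeq2 alone were CG10274, Cbs and CG11825, the last described above. CG10274 had 16.3, 7.91 and 13.0 CPM in row RNAi and 27.7, 34.3 and 26.0 CPM in control, with no overlap (log2 change -1.24, SE 0.30, adjusted p = 0.0105 in DESeq2 and 0.0506 in edgeR). Cbs, cystathionine beta-synthase of the transsulfuration pathway, had 42.9, 55.0 and 50.0 CPM in row RNAi and 65.9, 82.0 and 83.3 CPM in control. Its groups did not overlap (log2 change -0.65, SE 0.16, adjusted p = 0.0232 in DESeq2 and 0.0677 in edgeR). In the list of serine synthesis and transsulfuration 6 of 11 genes were above 0 and 5 below, and the median was 0.00. At an unadjusted p under 0.05 in edgeR, 2 members of this list were lower and 1 was higher.

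A further group of genes had an unadjusted p under 0.01 and groups that did not overlap at a mean of 10 CPM or more, but passed in neither tool. There were 31 such genes higher in row RNAi and 30 lower, of 7377 tested. Over all tested genes 109 had an unadjusted p under 0.01, and 11.8% had groups that did not overlap. How many of these genes would reach such values without any effect was not tested. The initiator caspase gene Dronc had 27.6, 23.7 and 31.1 CPM in row RNAi and 16.3, 11.8 and 13.2 CPM in control (log2 change 1.00, SE 0.28, adjusted p = 0.198). Mnt, an antagonist of the growth regulator Myc, had 48.2, 63.6 and 38.9 CPM in row RNAi and 22.7, 34.3 and 32.3 CPM in control (log2 change 0.75, SE 0.22). Both were higher in every row RNAi library than in any control library, which the rule for this group requires. The remaining genes with the largest positive log2 changes in this group were CG18557 (1.63), CG9505 (0.99, above), sprt (0.90), MFS3 (0.76), CG12746 (0.70) and Hip14 (0.68). The largest negative ones were CG43107 (-1.63), CG1529 (-1.43), CG31274 (-1.22), MESK4 (-1.21), CG5167 (-1.21), CG8157 (-1.16), mus301 (-1.15) and hfw (-1.04). CG31274 had 16, 12 and 31 counts in row RNAi and 45, 41 and 43 in control, and MESK4 had 18, 12 and 31 counts in row RNAi and 45, 45 and 43 in control. Since these counts are nearly the same, the 2 genes may not be separate measurements.

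In the further lists of stress and death genes, members were above 0 more often than below. Over all tested genes 3618 were above 0 and 3759 below. These further lists held no call by edgeR and 1 by DESeq2, Mmp1 in the JNK list. In the list of the unfolded protein and integrated stress responses 17 of 23 genes were above 0 (median 0.12), among them the transcription factor gene Xrp1 (log2 change 0.29, SE 0.09, adjusted p = 0.350). Of caspases and apoptosis regulators 11 of 17 were above 0 (median 0.08), with the effector caspase gene Drice at 0.29. Of the JNK pathway and its targets 16 of 23 were above 0 (median 0.08), with the Fos gene kay at 0.33 and the cytoskeletal linker gene shot, a lamellocyte marker, at 0.42 (SE 0.13, adjusted p = 0.350). These lists share members, so their counts are not separate. In the RNA interference machinery 12 of 21 genes were above 0 and 9 below (median 0.07). Dcr-2, the Dicer that cuts long dsRNA, had 49.2, 54.4 and 50.0 CPM in row RNAi and 33.7, 35.9 and 37.8 CPM in control. All row RNAi libraries were above all control libraries (log2 change 0.51, adjusted p = 0.666). The contribution of dsRNA itself to these values was not tested.

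Growth and division genes lay close to 0. The medians were -0.04 for 34 DNA replication genes, 0.00 for 40 mitosis genes, -0.02 for 21 regulators of G1 to S, 0.01 for 33 proteasome genes, -0.04 for 75 mitochondrial ribosomal protein genes and -0.04 for 69 nuclear-encoded respiratory chain genes. None of these genes was called, against 0.190% of all tested genes. The 86 cytoplasmic ribosomal protein genes had a median of 0.02, and they took 40.9% to 41.9% of the counts in row RNAi and 40.4% to 42.7% in control. Calls were spread over the chromosome arms, with 2 on 2L, 3 on 2R, 4 on 3L, 3 on 3R and 2 on X. On chromosome 4, which is rich in heterochromatin, 25 of 60 tested genes were above 0 and 35 below, with no call and a median of -0.08.

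Double RNAi against BEAF-32 RNAi gave a second measurement of adding row dsRNA, in cells that had all received dsRNA. Its levels come from 6 libraries outside row RNAi against control. Both comparisons were made in the same fit to all 12 libraries. They share its filter, scaling and estimate of spread, so their tests are not separate. At an adjusted p under 0.05, 9 genes were called there, 1 higher and 8 lower (0.122%). All 14 genes called in row RNAi against control had the same sign in it, as did 53.9% of all tested genes. In 13 of the 14 the double RNAi and BEAF-32 RNAi libraries did not overlap, against 12.2% of all tested genes, and 6 of the 14 were called. Over all tested genes the log2 changes of both comparisons had a Pearson r of 0.155, given as a description across genes that are not independent. The groups also differed in BEAF-32, which had 26.1, 33.2 and 30.4 CPM in double RNAi and 23.4, 24.6 and 14.9 CPM in BEAF-32 RNAi. Every double RNAi library was above every BEAF-32 RNAi library, a difference that did not pass (log2 change 0.51, SE 0.23, adjusted p = 0.570), and its part in the results of this comparison was not tested.

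Several list medians had another sign or size in double RNAi over BEAF-32 RNAi, where the median over all tested genes was again 0.00. The neprilysin-like peptidases, with only 6 tested genes, had a median of 0.40 there, against -0.61 in row RNAi over control. Among them CG14528, at low counts, had a log2 change of 3.20 there and -4.51 in row RNAi over control. CG14523 was below 0 in both comparisons. For histone methylation and heterochromatin it was 0.14, against -0.10, and for basement membrane genes 0.01, against -0.12. The plasmatocyte markers had -0.03, against -0.10. Heat shock chaperones (0.16), hypoxia response genes (0.11) and lamellocyte markers (0.13) stayed above 0, each with a smaller median than in row RNAi over control. The unfolded protein list (0.03, against 0.12) and the Toll and Imd list (0.02, against 0.18) also had smaller medians. Larger medians were seen for caspases and apoptosis regulators (0.18, against 0.08) and the JNK pathway and its targets (0.13, against 0.08).

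CG15209 had 15.9, 5.88 and 11.7 CPM in double RNAi and 41.3, 29.9 and 49.5 CPM in BEAF-32 RNAi (log2 change -1.84, SE 0.30, adjusted p = 3.46e-04). Nplp2 had 165, 168 and 119 CPM in double RNAi and 277, 289 and 361 CPM in BEAF-32 RNAi (log2 change -1.05, SE 0.12, adjusted p = 1.69e-06). Act5C had 7446, 7838 and 8577 CPM in double RNAi and 6648, 6927 and 6371 CPM in BEAF-32 RNAi (log2 change 0.26, SE 0.05, adjusted p = 0.00926). In these 3 genes no double RNAi library reached into the range of the BEAF-32 RNAi libraries. CG3961 (-0.52, adjusted p = 0.00864), Prx2540-1 (-0.87, adjusted p = 0.00926) and CG1092 (-0.35, adjusted p = 0.00981) also passed, and their log2 changes differed from those in row RNAi against control by 0.00 (CG3961) and by -0.02 (Prx2540-1 and CG1092). DnaJ-1 had 122, 117 and 115 CPM in double RNAi and 81.7, 79.5 and 89.4 CPM in BEAF-32 RNAi, without overlap, and did not pass (log2 change 0.50, adjusted p = 0.137). Glt (-0.56, adjusted p = 0.0524), He (-1.34, adjusted p = 0.193), CG1358 (-0.46, adjusted p = 0.517) and CG6310 (-0.30, adjusted p = 0.517) did not pass either. Row itself had 34.5, 34.0 and 25.4 CPM in double RNAi and 41.3, 37.1 and 47.1 CPM in BEAF-32 RNAi, without overlap (log2 change -0.43, SE 0.22, adjusted p = 0.676).

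**Figure D4:**
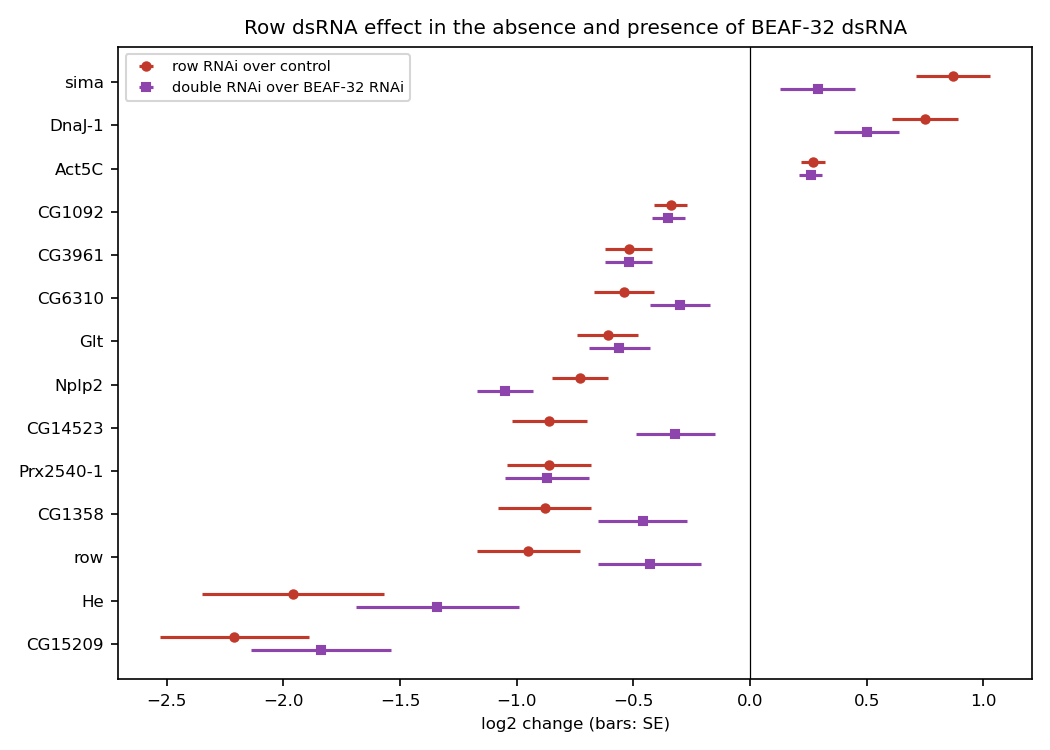
Log2 change with its SE (bars) for the 14 genes, in row RNAi over control (circles) and in double RNAi over BEAF-32 RNAi (squares). The groups compared are different libraries within the same fit. Each gene lies on the same side of 0 in both, and the marks are furthest apart for He, sima, CG14523 and row.

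The difference between these effects of row dsRNA was tested as an interaction. By edgeR it called 0 genes (0% of those tested), with 327 genes (4.43%) at an unadjusted p under 0.05, and DESeq2 and limma-voom also called 0. The lowest adjusted p was 0.513. Of the 14 genes, CG14523 and sima had an unadjusted p under 0.05 in this test. CG14523 had 56.1, 57.6 and 52.9 CPM in double RNAi and 53.6, 75.7 and 77.9 CPM in BEAF-32 RNAi, groups that overlapped, and its log2 change there was -0.32 (interaction adjusted p = 0.999). Sima had 97.3, 114 and 94.8 CPM in double RNAi and 83.3, 91.0 and 74.8 CPM in BEAF-32 RNAi, which did not overlap, and its log2 change there was 0.29 (interaction adjusted p = 0.999). Among the 8 genes called by DESeq2 alone, 7 had the same sign in both comparisons. The exception was CG10274, with a log2 change of 0.35 in double RNAi over BEAF-32 RNAi (interaction adjusted p = 0.931).

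The number of calls depended on the libraries. Leaving out row RNAi 1, 2 or 3 gave 8, 6 and 7 calls, and leaving out control 1, 2 or 3 gave 13, 12 and 4. Of the 14 genes, 3 were called in all 6 of these fits: CG15209, Nplp2 and Act5C. The fewest of the 14 genes, 4, were kept without control 3, and they were those 3 and DnaJ-1. For 6 of the 14 genes a second annotated gene shares the locus, so some of their counts may belong to that gene.

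**Figure D5:**
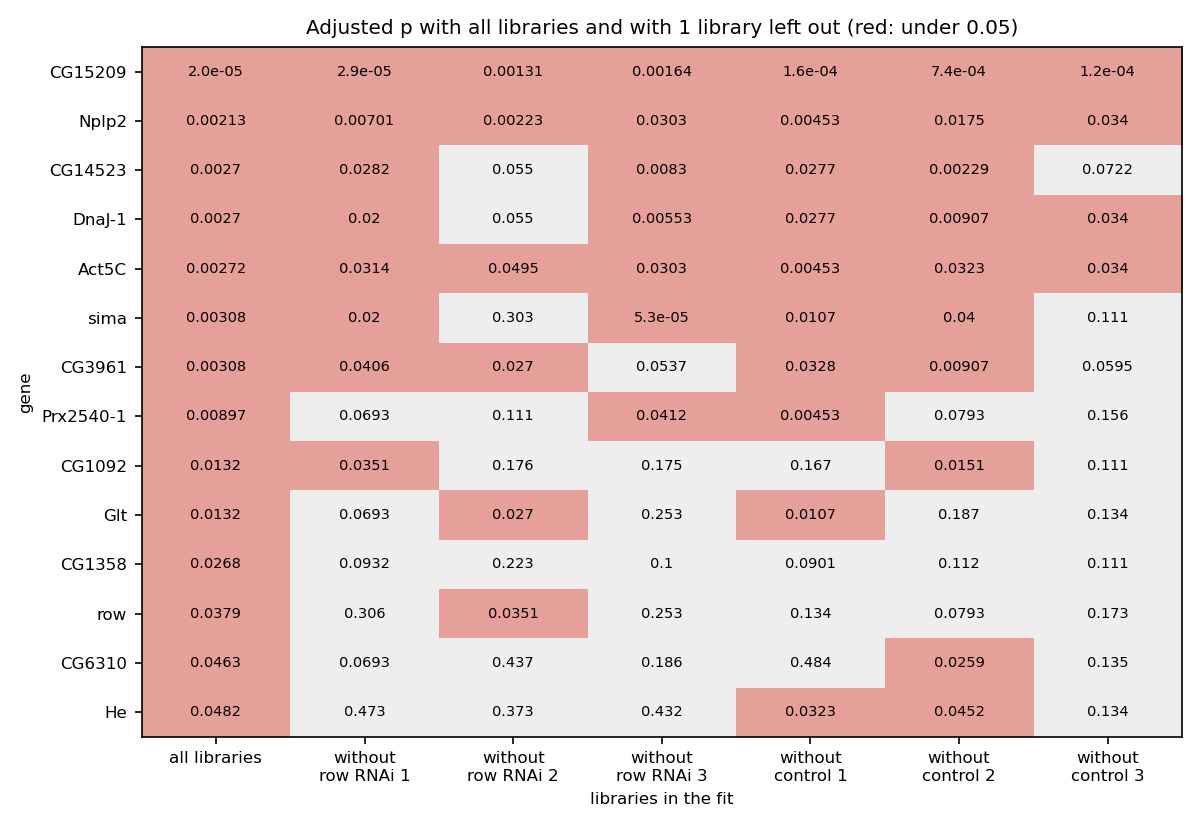
Adjusted p (numbers) of the 14 genes (vertical axis) with all libraries in the fit and with each of the 6 libraries left out in turn (horizontal axis), with values under 0.05 in red. CG15209, Nplp2 and Act5C are red throughout, and CG1358 is red only with all libraries.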

How the data were processed

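Per the labels' protocols, 100 ng of total RNA from each of 12 samples was reverse transcribed with oligo-dT primers that held a sample barcode (7 bases) and a molecular identifier (8 bases). Samples were then pooled and cut with Tn5 transposase. The authors deposited raw counts per gene, not normalized, with 1 column per library. STAR and the build dm3 are named, per the submitters' processing notes, with no version. Not given in the sources used here are the annotation, how reads were counted, and whether strand and molecular identifiers were used. The identifier has 65536 forms, and 3 values of 1 gene (Ef1alpha48D) in the 6 libraries exceeded that number. Total counts ran from 2276507 to 3963412 over the 12 libraries, and columns were tied to samples by name. Arms and strands are those of the table. The annotation BDGP6.54 held 16562 of the 16718 symbols (12672 as names, 3890 as synonyms). It is on another build and so served for names and neighbours only.

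The analysis used edgeR 4.0.16 in R 4.3.3. Low genes were removed by filterByExpr, grouped and with a minimum count of 10, and TMM scaled the libraries (factors 0.962 to 1.05). A robust quasi-likelihood model was fitted to all 12 libraries without a block and had 8 residual degrees of freedom (common biological coefficient of variation 0.172). The spread of each gene was moderated across genes, with a median prior of 51.3 degrees of freedom. Row RNAi was compared with control, double RNAi with BEAF-32 RNAi, and the difference of both was tested as an interaction. Benjamini-Hochberg adjustment ran over the 7377 genes tested, and an adjusted p under 0.05 was called. CPM are per TMM-scaled total, ± gives the SD of 3 libraries, and the SE of a log2 change is its size over the square root of F. The test was also run on counts simulated from the fitted spread of each gene, drawn independently for each library. Such counts cannot show whether replicates are technical or how far a call rests on 1 library, and no conclusion is drawn from them.

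Gene lists (37, and all CR-numbered transcripts) are described by counts and medians, with no test of a list. Members, lists and named genes were chosen with earlier results of these data known. Named were row, BEAF-32, the HP1c list, every called gene and its neighbours, the genes called by DESeq2 1.42.0 alone, and up to 8 genes a direction with unadjusted p under 0.01, groups that did not overlap and a mean of at least 10 CPM. Up to 3 members of each list with the smallest p were added. Act42A, Hsf, Hsp68, chrb and LanB2, the list members listed at 0, and CG14528 in the closing section were named after their values were seen. Alternatives were DESeq2's size factors, library totals alone, no filter, a filter of 10 CPM in 3 libraries, DESeq2, limma-voom (limma 3.58.1), only the 6 libraries, the replicate number as a block, a stricter threshold (0.01), and fits without each library in turn.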

Additional observations from a re-analysis of the deposited data

How the results depend on the processing

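The count of 14 genes was 14 with DESeq2's size factors, 15 with library totals alone, 15 with a filter of 10 CPM in 3 libraries, 13 with limma-voom, and 21 both with no filter on low counts and with only the 6 libraries in the fit. DESeq2 called 22 genes, and a threshold of 0.01 left 8; the cause of the DESeq2 difference was not tested. Leaving out 1 library gave 4 to 13, the fewest without control 3. No result reversed under these alternatives. Of 370 refits of list medians, 301 were scored as the same and 69 as moved, so the sizes of the medians depend in part on the settings. The replicate numbers did not pair the libraries: same-numbered row RNAi and control libraries had correlations of deviations of -0.0232, 0.0211 and 0.00703, and the fit with the replicate number as a block called 13 genes, CG6310 being the 1 of the 14 not among them (adjusted p = 0.0688). Library totals alone lost He (0.0581), and limma-voom lost He (0.698) and CG6310 (0.0602). Over the 14 called genes and these settings, 43 of 196 refits kept the direction and lost the call, 39 of them in fits that left out a library. Depth limits low genes: levels below about 10 CPM rest on few counts per library, and intervals and SE cover these libraries only.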

Other observations

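Genes of hormone and immune signalling, not described above, gave no call, against 0.190% of all tested genes. In the ecdysone response list 9 of 17 tested genes were above 0 and 8 below, with a median of 0.14. ImpL2, an ecdysone-inducible inhibitor of insulin signalling, had 368, 367 and 379.9 CPM in row RNAi and 311, 317 and 291 CPM in control. Every row RNAi library was above every control library (log2 change 0.28, adjusted p = 0.371). The ecdysone receptor partner usp had a log2 change of 0.37 (SE 0.14, adjusted p = 0.678). Eip55E, which carries the current symbol Cth, had one of -0.60 (SE 0.23, adjusted p = 0.666). In the Toll and Imd list 16 of 23 genes were above 0 (median 0.18), with the kinase gene pll at 0.38 (adjusted p = 0.802), while the antimicrobial peptide genes AttA, AttC, AttD, Dpt and Mtk were at 0 in all 6 libraries. In the JAK/STAT list 7 of 12 were above 0 (median 0.08). The remaining lists also held no call: 3 of 7 MSL complex genes (median -0.01), 14 of 29 vacuolar ATPase and lysosome genes (0.00), 9 of 19 lipid genes (-0.01) and 3 of 5 genes of juvenile hormone hydrolases and esterases (0.05) were above 0.

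Translation initiation factors were above 0 in 28 of 35 cases with a median of only 0.06, and none was called. Among 223 tested CR-numbered transcripts 98 were above 0 and 125 below, with no call. CR40594 had 23.3, 64.3 and 28.7 CPM in row RNAi and 19.7, 18.7 and 25.7 CPM in control, groups that overlapped (log2 change 0.86, SE 0.27, adjusted p = 0.358). It was highest in row RNAi 2, the library in which sima was also highest.

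CG14528, a neprilysin-like gene at low counts, had the lowest interaction p of all tested genes and opposite signs in both comparisons. It had 0.332, 0 and 0 CPM in row RNAi and 5.30, 1.25 and 3.82 CPM in control, and 3.09, 4.20 and 3.35 CPM in double RNAi and 0.397, 0.623 and 0 CPM in BEAF-32 RNAi. Its interaction in edgeR had an adjusted p = 0.513 and so did not pass.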
